A study of Saccharomyces cerevisiae with 6 samples.

Results

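The 10 genes described here serve the use of allantoin as a nitrogen source in budding yeast, Saccharomyces cerevisiae, together with the GATA-type factors that control them. They were chosen by gene symbol: the enzyme genes DAL1, DAL2, DAL3 and DAL7, the permease genes DAL4, DAL5 and DUR3, and the factor genes GLN3, GAT1 and DAL80. Earlier results of these data were known at the choice, so counts and class comparisons of the 10 genes are descriptions only. All 10 were among the 5449 genes tested on the array, and each was read by 1 probe set, none with the suffix that marks sequence shared between genes. Expression was measured in 3 samples with the histone H2A R78A form and 3 with wild-type H2A, on one-colour Affymetrix arrays. In R78A an arginine of H2A that reaches into the minor groove of nucleosomal DNA, a sprocket arginine, is replaced by alanine. Both groups grew in rich glucose medium (YPD) at 30 °C and were collected in mid-log phase. The labels give neither the strain background nor the way the mutant histone was introduced. They also do not say whether replicates came from separate cultures, so p-values cover only the spread among the 6 samples, and that spread may be technical.

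Allantoin is a nitrogen-rich breakdown product of purines. Yeast takes it up, opens its ring and cuts it stepwise to urea and glyoxylate, and urea then yields ammonia. When a preferred nitrogen source is at hand the genes are kept low, a state called nitrogen catabolite repression: Ure2 holds the GATA activators Gln3 and Gat1 in the cytoplasm, while the GATA factors Dal80 and Gzf3 compete for the same GATA sites as repressors. Full expression also needs Dal81 and Dal82, which respond to an intermediate of the pathway. Several DAL genes lie side by side on chromosome IX.

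Signals are the deposited linear values, scaled to the same trimmed mean of 500 on each array, and log2 differences are given as H2A R78A minus wild type. A gene is said to rise or fall where limma's test gave a Benjamini-Hochberg adjusted p below 0.05 over all 5449 genes. Dim genes were shifted upward as a class on the deposited scale, and quantile normalization, which gives every array the same distribution, removed that shift. The quantile-normalized difference is therefore given beside the deposited one. The 25th percentile of the genes' mean signals, 232, is called the background level below; detection calls were not used here, so how far the dimmest signals stand above the array's own background is not known. The probe sets cannot read the point mutation itself. HTA1, one of the H2A genes, averaged 1839 ± 104 in H2A R78A and 1794 ± 63.2 in wild type (SD, n = 3 each; log2 0.03, adjusted p = 0.686), and was higher after quantile normalization (0.19, adjusted p = 0.00932).

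Of the 10 genes, 5 rose in H2A R78A and 0 fell. The 3 genes DAL80, DAL1 and DAL4 were more than 2-fold higher, as were 2.59% of all genes, DAL3 and DUR3 were less than 2-fold higher, and DAL2, DAL5, DAL7, GLN3 and GAT1 did not pass. Among all genes tested 17.9% rose and 9.18% fell. The median log2 difference of the 10 was 0.39, against 0.02 over all genes. After quantile normalization the same 5 rose and GLN3 fell, where 10.4% of all genes rose and 9.98% fell, and the medians were 0.20 for the 10 genes and -0.03 for all genes. The values of the groups did not overlap, with H2A R78A higher, for 6 of the 10, the 5 that rose and DAL2. For 0 of the 10 the groups were separated with H2A R78A lower. Over all genes 25.7% were separated with H2A R78A higher and 17.4% with it lower.

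The enzymes split into those that rose and those that did not pass. DAL1 (YIR027C) encodes allantoinase, which opens the allantoin ring. Its signal was 168, 172 and 163 in H2A R78A, against 71.5, 67.3 and 69.2 in wild type. Every mutant array was more than 2-fold above every wild-type array, and the spread within each group was small. The fold was 2.42 (log2 1.28 ± 0.10, SE; adjusted p = 2.01e-05), and the quantile-normalized difference was 0.92 (adjusted p = 1.68e-04). All 6 DAL1 signals lay below the background level, and with values under the 10th percentile of all signals, 111, raised to it the log2 difference was 0.59 (adjusted p = 3.64e-04). Allantoicase, which acts next, is encoded by DAL2 (YIR029W), with signals of 187, 181 and 185 in H2A R78A and 159, 151 and 167 in wild type. The mutant arrays were higher on every comparison, by a small margin. The log2 difference of 0.22 (95% interval 0.01 to 0.42) did not pass (adjusted p = 0.101). It was -0.04 after quantile normalization, so its direction depended on the scaling. DAL2 passed as higher with low values raised (limma adjusted p = 0.0254), with limma without trend (0.0486) and with array weights (0.0485).

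DAL3 (YIR032C) encodes ureidoglycolate lyase, which releases urea and glyoxylate. It read 199, 207 and 196 in H2A R78A, against 106, 93.4 and 116 in wild type. The groups were far apart, with most of the scatter on the wild-type side. DAL3 was 1.92-fold higher (log2 0.94 ± 0.11, SE; adjusted p = 1.64e-04), and 0.64 higher on the log2 scale after quantile normalization (adjusted p = 0.00133). DAL7 (YIR031C) encodes a malate synthase that uses the glyoxylate formed. It read 302, 271 and 304 in H2A R78A and 259, 296 and 293 in wild type. These values overlap, and the log2 difference was 0.05 (95% interval -0.15 to 0.25; adjusted p = 0.713). The interval leaves out increases of the size seen for DAL1 and DAL3. After quantile normalization the DAL7 value was -0.08.

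MLS1, the paralogue of DAL7 that serves the glyoxylate cycle, was 3.06-fold higher (175 ± 18.6 in H2A R78A and 57.2 ± 4.24 in wild type, SD, n = 3 each; adjusted p = 1.26e-05). All 6 MLS1 signals lay below the background level, and with low values raised the log2 difference was 0.65 in place of 1.62. The log2 ratio of MLS1 to DAL7 signal was -0.89, -0.46 and -0.87 on the mutant arrays and -2.06, -2.43 and -2.43 on the wild-type arrays. The ratio was higher on every mutant array, by 1.57 on average with the deposited signals. After quantile normalization the log2 differences were 1.23 for MLS1 and -0.08 for DAL7. The difference between the paralogues was not tested.

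Among the permeases, DAL4 and DUR3 rose and DAL5 did not pass. DAL4 (YIR028W), the allantoin permease gene, read 326, 249 and 291 in H2A R78A, against 125, 118 and 129 in wild type. The mutant arrays varied more than the wild-type ones but were all far above them, and they lay above the background level while all wild-type arrays lay below it. The fold was 2.31 (log2 1.21 ± 0.11, SE; adjusted p = 3.50e-05), with 0.96 after quantile normalization (adjusted p = 9.88e-05). DUR3 (YHL016C), whose product imports urea and polyamines, read 402, 342 and 333 in H2A R78A and 230, 232 and 270 in wild type. All mutant arrays were above all wild-type arrays. DUR3 was 1.47-fold higher (log2 0.56 ± 0.10, SE; adjusted p = 0.00247), with 0.43 after quantile normalization (adjusted p = 0.00858). It was the only riser of the 10 genes whose mean over all arrays exceeded the background level. DAL5 (YJR152W), the permease gene for allantoate and ureidosuccinate, read 261, 251 and 251 in H2A R78A and 255, 242 and 242 in wild type. The groups overlapped within a narrow range. The log2 difference was 0.05 (95% interval -0.13 to 0.22; adjusted p = 0.687), and -0.12 after quantile normalization.

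Of the 3 GATA factors, the repressor gene rose and the activator genes did not pass on the deposited scale. DAL80 (YKR034W) encodes the repressor, and its own expression is a classic target of Gln3 and Gat1. It read 106, 95.8 and 102 in H2A R78A, against 37.6, 30.6 and 27.8 in wild type. The lowest mutant array was well above the highest wild-type array. This was the largest difference of the 10 genes on both scalings, 3.19-fold (log2 1.67 ± 0.15, SE; adjusted p = 2.97e-05) and 1.20 on the log2 scale after quantile normalization (adjusted p = 1.30e-04). All 6 DAL80 signals lay below the background level. When values below 111 were raised to it, all 6 arrays read the same and no difference could be seen.

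GLN3 (YER040W), for the activator that Ure2 binds, read 77.8, 66.9 and 85.0 in H2A R78A and 87.7, 77.1 and 88.8 in wild type. The groups overlapped, with the mutant arrays slightly lower on average. On the deposited scale the log2 difference was -0.15 (95% interval -0.44 to 0.15; adjusted p = 0.437). After quantile normalization it was -0.56 (adjusted p = 0.00631) and with cyclic loess -0.53 (adjusted p = 0.00783), so whether GLN3 fell depended on the scaling. Every GLN3 signal lay below the background level and also below 111, so with low values raised no difference could be seen. GAT1 (YFL021W), for the second activator, read 608, 661 and 521 in H2A R78A and 707, 689 and 594 in wild type. These overlapped, with the mutant arrays lower on average. The log2 difference was -0.16 (95% interval -0.37 to 0.06; adjusted p = 0.256), and -0.15 after quantile normalization (adjusted p = 0.301). With array weights in limma, GAT1 passed as lower (-0.27, adjusted p = 0.029).

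**Figure D1:**
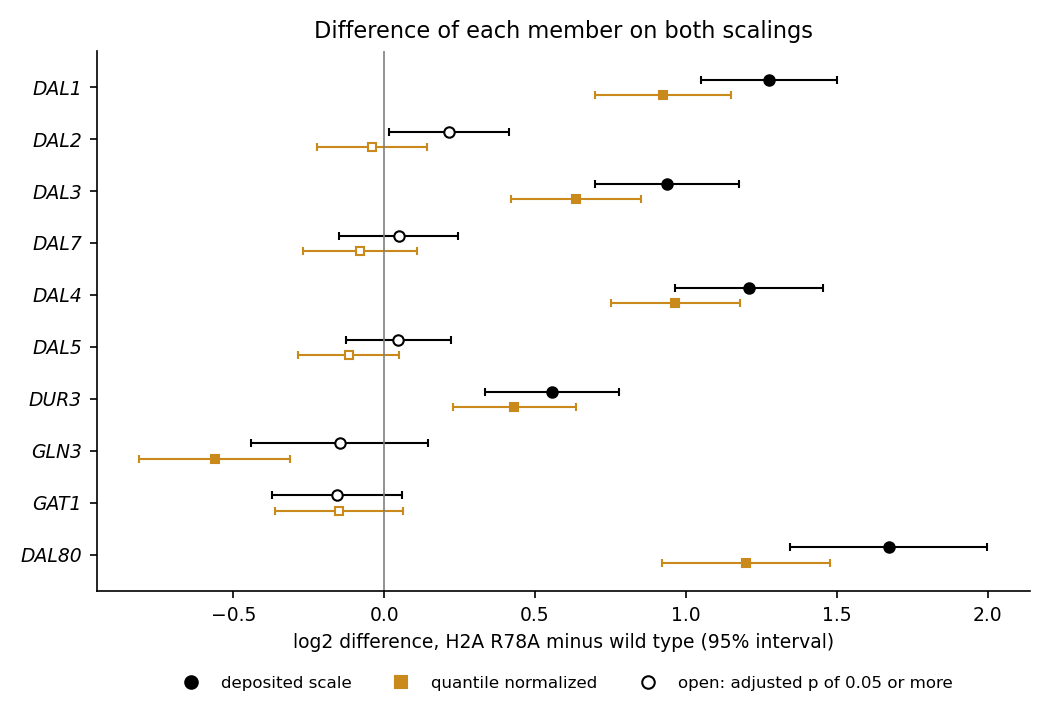
Log2 difference (H2A R78A minus wild type) of each of the 10 genes with its 95% interval, on the deposited scale (black circles) and after quantile normalization (orange squares); filled symbols have an adjusted p below 0.05. DAL1, DAL3, DAL4, DUR3 and DAL80 are filled and positive on both scalings, and GLN3 is filled and negative on the normalized scale, where its difference is -0.56.

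How much of these differences goes with dimness can be read from genes of similar signal. DAL80 belongs to the class of 246 genes whose mean log2 signal was under 6, which had a median difference of 0.51, and 46.3% of them rose. In the class of DAL1 and GLN3, from 6 to 7, the median was 0.33 over 393 genes. It was 0.18 over 927 genes from 7 to 8, where DAL2, DAL3, DAL4 and DAL5 lie, and 0.05 over 1722 genes from 8 to 9, where DAL7 and DUR3 lie. After quantile normalization the medians of all 6 signal classes lay between -0.06 and -0.01. The 5 genes that rose all lay above the 90th percentile of the differences in their own class, which was 1.32 for DAL80, 0.97 for DAL1, 0.70 for DAL3 and DAL4 and 0.36 for DUR3. DAL2 and DAL7 lay close to their class medians. GLN3 lay below the 10th percentile of its class, which was -0.07.

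**Figure D2:**
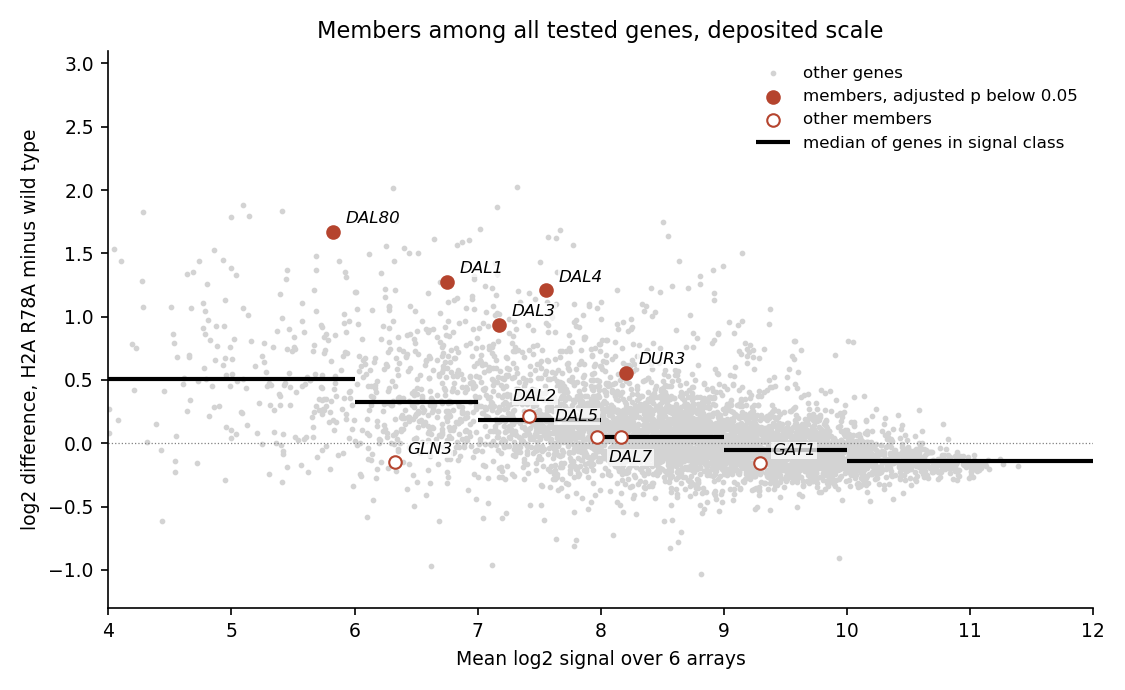
Log2 difference (H2A R78A minus wild type) against mean log2 signal over the 6 arrays for all tested genes (grey), with the 10 genes in red, filled where the adjusted p was below 0.05, and black bars for the median of each signal class; 33 genes with a mean log2 signal below 4 lie outside the axis. The class medians run from 0.51 in the dimmest genes to -0.14 in the brightest, and the 5 filled genes lie well above the medians of their classes.

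Several of the genes are neighbours on the chromosome. DAL1, DAL4, DAL2, DCG1, DAL7 and DAL3 are consecutive in the gene order of chromosome IX, with 7 tested genes between DAL3 and the right end. Of these 6 genes 4 rose, DAL1, DAL4, DCG1 and DAL3, and the genes that did not pass, DAL2 and DAL7, lie between them. Over all genes 17.9% rose, and in the signal classes of the cluster genes 43.5% (DAL1 and DCG1), 30.4% (DAL2, DAL3 and DAL4) and 16.4% (DAL7) rose. After quantile normalization 3 of the 6 rose, DAL1, DAL4 and DAL3, against 10.4% of all genes. The 95% interval of DAL2 (0.01 to 0.42) lay wholly below that of its neighbour DAL4 (0.96 to 1.45), and that of DAL7 (-0.15 to 0.25) below that of its neighbour DAL3 (0.70 to 1.18). DCG1 is the other neighbour of both, and its interval (0.38 to 1.43) overlapped that of DAL2 and lay above that of DAL7. The differences between neighbouring genes were not tested.

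DCG1 (YIR030C), a gene of unknown function that shares the nitrogen control of the cluster, read 150, 100.03 and 150 in H2A R78A, against 70.8, 49.0 and 98.5 in wild type. The highest wild-type array nearly reached the lowest mutant array. DCG1 was 1.87-fold higher (log2 0.91 ± 0.24, SE; adjusted p = 0.0187), with 0.52 after quantile normalization (adjusted p = 0.0931). Its deposited difference lay below the 90th percentile of its signal class, 0.97. The call ended without wild-type replicate 2 (adjusted p = 0.0548), without mutant replicate 1 (0.0624) and without mutant replicate 3 (0.0704). It also ended with low values raised (log2 0.29, adjusted p = 0.189).

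The 3 nearest tested genes on either side were followed too, and of these 6 genes 1 rose, where 17.9% of all genes rose. In their signal classes 43.5% (MND2), 30.4% (INA22), 16.4% (YVH1, LYS1 and IRC24) and 7.59% (MGA2) of genes rose. To the left, INA22, for an assembly factor of the mitochondrial ATP synthase, MND2, for a subunit of the anaphase-promoting complex, and YVH1, for a phosphatase with a role in ribosome maturation, had log2 differences of -0.17, 0.18 and -0.19, and none passed (adjusted p = 0.230, 0.276 and 0.0957). To the right, MGA2, for a membrane-bound activator of fatty acid desaturation, had -0.15 (adjusted p = 0.0862, and 0.0493 with the replicate number as a block), and IRC24 had 0.08 (adjusted p = 0.554). LYS1, a lysine synthesis gene, passed narrowly as higher (0.22, adjusted p = 0.0483). That call ended after quantile normalization (0.10, adjusted p = 0.418) and with any one array left out. After quantile normalization INA22 passed as lower (-0.38, adjusted p = 0.024).

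**Figure D3:**
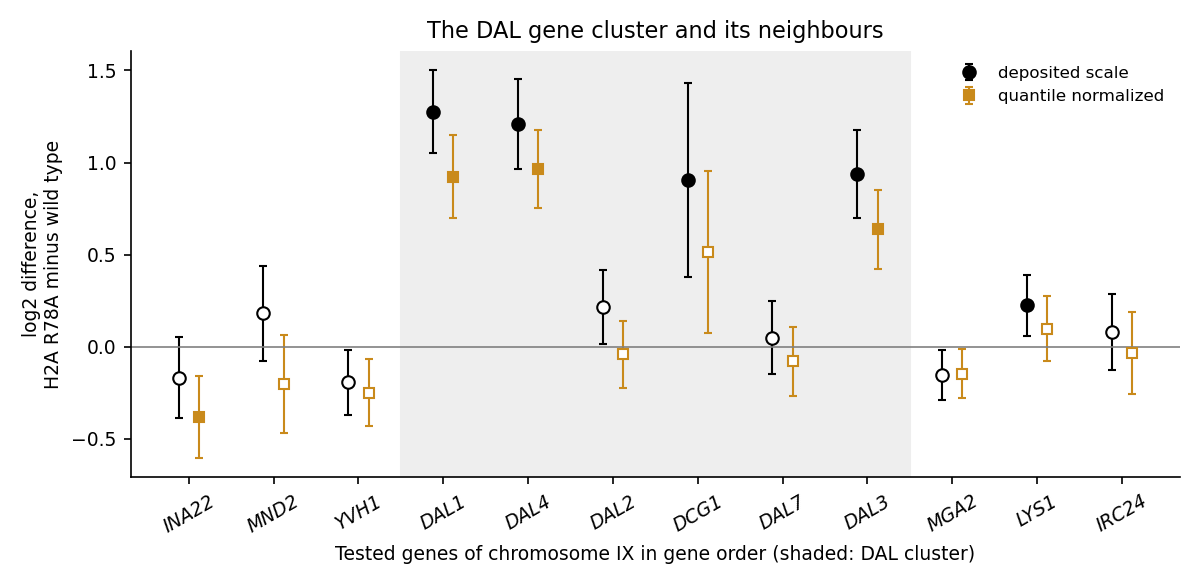
Log2 difference (H2A R78A minus wild type) with its 95% interval for the 6 genes of the DAL cluster (shaded) and the 3 nearest tested genes on each side, in chromosomal order, on the deposited scale (black circles) and after quantile normalization (orange squares); filled symbols have an adjusted p below 0.05. DAL1, DAL4, DCG1 and DAL3 lie between 0.91 and 1.28 on the deposited scale, DAL2 and DAL7 at 0.22 and 0.05, and the flanking genes between -0.19 and 0.22.

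Of 6 further listed genes of the allantoin pathway 5 were measured. On the deposited scale 1 rose, DCG1, and 1 fell, DAL82, where 17.9% of all genes rose and 9.18% fell. After quantile normalization 0 rose and 2 fell, DAL82 and DAL81, where 10.4% of all genes rose and 9.98% fell. DAL82 (YNL314W), for the factor that mediates induction by the pathway's intermediate, read 177, 202 and 174 in H2A R78A, against 239, 269 and 229 in wild type. All mutant arrays were lower. DAL82 fell by 0.41 on the log2 scale (SE 0.10, adjusted p = 0.0125), and by 0.62 after quantile normalization (adjusted p = 0.00464). Without mutant replicate 3 the adjusted p was 0.057.

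DAL81 (YIR023W), for the partner activator of Dal82, read 331, 334 and 324 in H2A R78A and 363, 415 and 367 in wild type. The groups did not overlap, with the mutant lower. Its log2 difference of -0.21 did not pass (adjusted p = 0.072), and passed with the replicate number as a block (adjusted p = 0.0374) and after quantile normalization (-0.30, adjusted p = 0.0257). URE2, for the inhibitor of Gln3, averaged 640 ± 15.4 in H2A R78A and 586 ± 37.3 in wild type (SD, n = 3 each; log2 0.13, 95% interval -0.02 to 0.28, adjusted p = 0.180). GZF3, for the second GATA repressor, averaged 178 ± 13.5 in H2A R78A and 180 ± 8.66 in wild type (log2 -0.02, 95% interval -0.23 to 0.20, adjusted p = 0.904). DUR1,2, the urea amidolyase gene, was not analysed here.

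Other genes of nitrogen source use were followed too, on a list chosen with earlier results of these data known. Of 22 measured genes on a list of permeases and enzymes for ammonium, amino acids, GABA, arginine and other nitrogen compounds, 11 rose, 2 fell and 9 did not pass, where 17.9% of all genes rose and 9.18% fell. The median log2 difference was 0.34, against 0.02 over all genes. After quantile normalization 7 rose and 1 fell, where 10.4% of all genes rose and 9.98% fell, with a median of 0.10, against -0.03 over all genes. UGA4, the GABA permease gene, was 2.05-fold higher (193 ± 23.9 in H2A R78A and 94.2 ± 13.1 in wild type, SD, n = 3 each; adjusted p = 3.30e-04). CAR2, for the ornithine transaminase of arginine breakdown, was 2.02-fold higher (206 ± 16.6 in H2A R78A and 106 ± 34.7 in wild type; adjusted p = 0.00435). UGA1, for GABA transaminase, lay above the background level on every array and was 1.92-fold higher (918 ± 80.2 in H2A R78A and 479 ± 26.8 in wild type; adjusted p = 2.29e-05). PUT4, the proline permease gene, was 1.87-fold higher (60.4 ± 4.23 in H2A R78A and 32.7 ± 5.66 in wild type; adjusted p = 0.00275). The UGA4, CAR2 and PUT4 signals lay below the background level on all arrays. In their signal classes 30.4% (UGA4 and CAR2) and 46.3% (PUT4) of genes rose. A filter at the background level left 12 of the 22 genes, of which 4 rose and 2 fell. Of all 4087 genes left by it, 419 rose and 392 fell. Once low values were raised, PUT4 had no difference left, while UGA4 and CAR2 had log2 differences of 0.785 and 0.777. PUT4 did not pass after quantile normalization (0.38, adjusted p = 0.0615). The log2 differences of UGA4, CAR2 and UGA1 were then 0.71, 0.73 and 0.95 and passed.

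**Figure D4:**
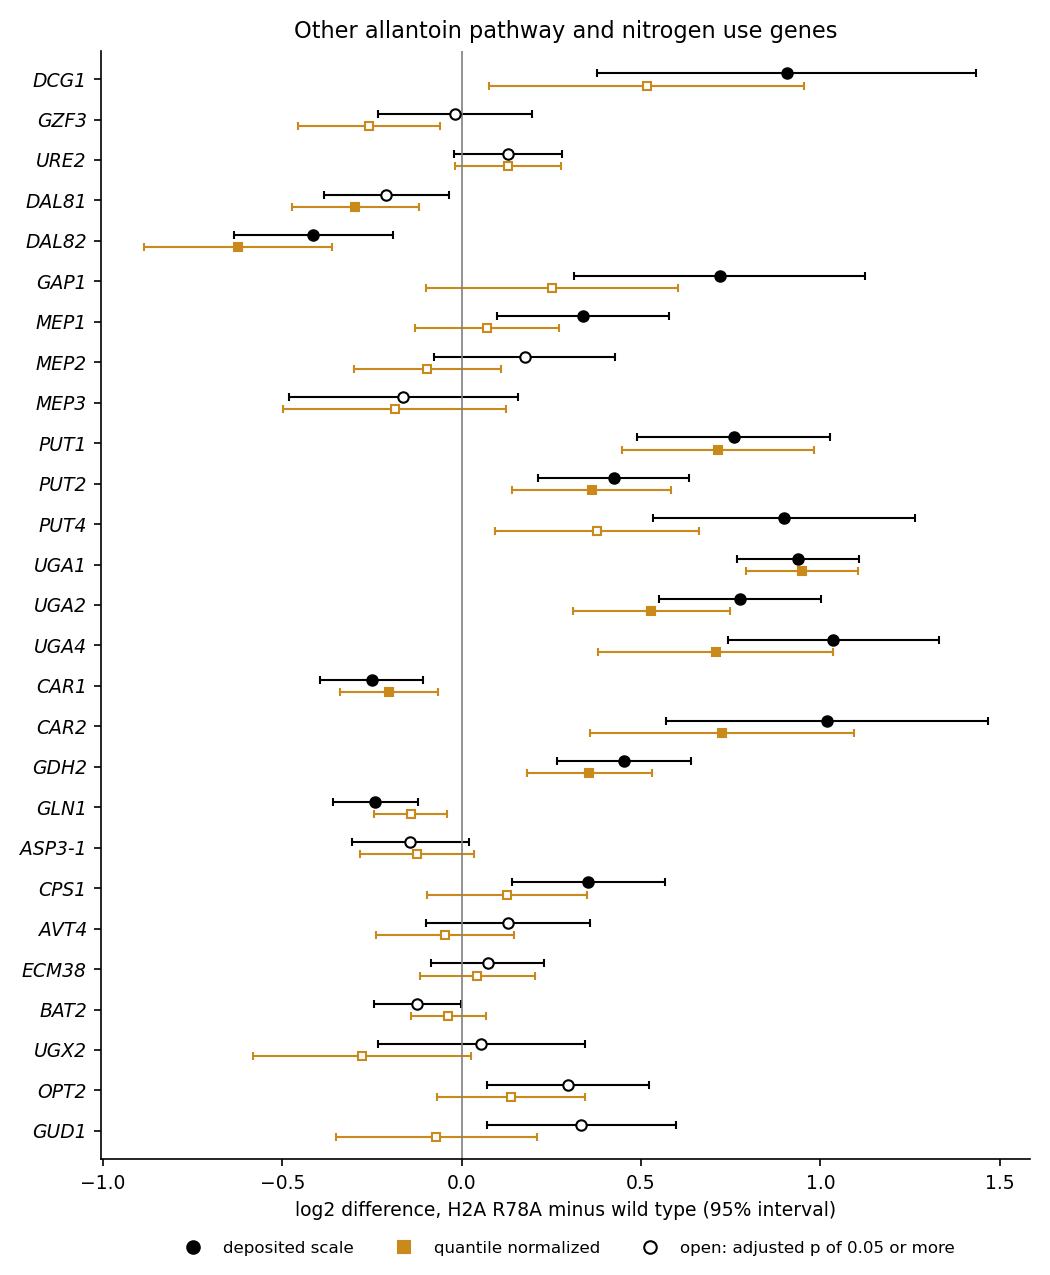
Log2 difference (H2A R78A minus wild type) with its 95% interval for the 5 other measured allantoin pathway genes (top, DCG1 to DAL82) and the 22 measured genes of nitrogen source use (GAP1 to GUD1), on the deposited scale (black circles) and after quantile normalization (orange squares); filled symbols have an adjusted p below 0.05. Of the 22 genes, 11 are filled and positive on the deposited scale and 7 after normalization.

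Markers of growth state and mating type moved with the same comparison. All 10 listed genes of cells past glucose exhaustion, ADH2, ICL1, MLS1, FBP1, PCK1, JEN1, HSP12, HSP26, CTT1 and SPG4, rose, and their summed signal was 3547 to 3708 on the H2A R78A arrays and 1812 to 2149 on the wild-type arrays. After quantile normalization 9 of the 10 rose. The shares of all genes given above hold for these counts too, 17.9% rising and 9.18% falling with the deposited signals, 10.4% rising and 9.98% falling once quantile normalized. In the signal classes of the glucose exhaustion genes 46.3% (FBP1), 43.5% (MLS1 and CTT1), 30.4% (ADH2, ICL1, PCK1, JEN1 and SPG4) and 7.59% (HSP12 and HSP26) of genes rose. Of the 5 a-cell genes, 4 fell, with summed signals of 4236 to 4430 in H2A R78A and 5095 to 5503 in wild type, and 4 also fell after quantile normalization. Of the 4 alpha-cell genes, 3 rose, with summed signals of 615 to 660 in H2A R78A and 452 to 473 in wild type, and 2 rose after quantile normalization. The 3 that rose lay below the background level on all arrays, in signal classes where 30.4% to 46.3% of genes rose. MFA1, STE2 and STE6, which fell, had a mean log2 signal above 10, where 29.2% of genes fell. BAR1, which also fell, lay from 9 to 10, where 12.5% fell. A filter at the background level left 4087 of all genes, of which 419 rose and 392 fell. It left 1 alpha-cell gene, and 0 rose. It left 2 of the 10 glucose exhaustion genes, and 2 rose. All 5 a-cell genes were left, and 4 fell. None of these markers was at 0 on any array, but that does not show detection. MF(ALPHA)1, for example, read 20.6, 19.4 and 17.2 in wild type. The part of these markers in the differences of the allantoin genes was not tested.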

How the data were processed

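The authors deposited linear probe set signal intensity values for 5900 probe sets on 6 one-colour arrays. Per the submitters' processing notes MAS5 and limma were used, no version being stated. The trimmed mean of the deposited values (2% at each end) is 500 on every array. Log2 was taken with no further normalization. Of the probe sets, 5498 were paired with 1 gene each, 12 symbols were updated from the R64 gene table by gene ID, and the brightest probe set of each gene was kept, which gave 5449 genes. DUR1,2 and LAP4 were not analysed here.

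The comparison used the two-sided moderated test of limma 3.58.1 (R 4.3.3; eBayes with an intensity trend) without a filter, adjusted by Benjamini-Hochberg over all genes with a threshold of 0.05, and was tested on simulated data. Figures were drawn with matplotlib 3.10.9 in Python. The number of arrays limits the precision.

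Named were all 10 members, the measured genes of the other pathway list, MLS1 and the 3 nearest tested genes on each side of the cluster. Named too were HTA1 and HTA2 as H2A genes, and the 4 called nitrogen genes with the largest difference. The labels do not say which H2A gene carries the change. HTA2 is read by a probe set shared between genes and gets no value. The members and lists were chosen with earlier results of these data known.

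Replicate numbers recur in both groups. Residuals from the group means of same-numbered arrays correlated with r = 0.206, 0.383 and 0.427 across genes (genes are not independent replicates). For differently numbered arrays r ran from -0.449 to 0.154. Residuals cancel within a group, so these values depend on each other and do not settle whether the numbers pair the arrays. The main test left the numbers out, and they were fitted as a block as an alternative. Other alternatives were quantile normalization, median centring, cyclic loess, a filter at the background level, raising of low values, the mean of probe sets, limma without trend, robust or with array weights, other thresholds and leaving out each array.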

Additional observations from a re-analysis of the deposited data

How the results depend on the processing

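DAL1, DAL3, DAL4 and DUR3 stayed higher with an adjusted p below 0.05 in every alternative that tested them, and DAL80 in all but the raising of low values, which also lowered the DAL1 difference to 0.59. The filter at the background level left 4 of the 10 genes, of which DUR3 rose, where 419 of all 4087 genes left rose. The count of members that rose was 5 in each run without 1 array, and 0 fell. With limma without trend or with array weights 6 members rose, DAL2 being added. Of all 5449 genes 956 rose without trend and 1340 with array weights, against 976 in the main fit. DAL2 also passed as higher with low values raised. One member was lower with quantile normalization, cyclic loess and quantile normalization with the replicate block (GLN3), and 1 with array weights (GAT1). Of the other pathway genes, 0 rose with quantile normalization, cyclic loess, low values raised, the filter or a threshold of 0.01, and 0 to 1 without 1 array. There 2 fell with quantile normalization, median centring, cyclic loess, array weights, the replicate block or a threshold of 0.1, 3 with the block and quantile normalization, 0 with the filter or a threshold of 0.01, and 0 to 1 without 1 array. Of the nitrogen genes, 7 rose with quantile normalization, cyclic loess or low values raised and 4 of 12 with the filter. Of these 1 fell with quantile normalization or a threshold of 0.01, 0 with cyclic loess and 1 to 2 without 1 array.

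Over all genes the main counts were 976 higher and 500 lower, so 66.1% were higher. Higher were 566 with quantile normalization, 622 with cyclic loess, 419 with the filter, 574 with low values raised and 584 at a threshold of 0.01. Lower were 875 with median centring, 312 without trend, 920 with array weights, 857 with the replicate block, 871 with the block and quantile normalization, 138 at 0.01 and 791 at 0.1. Quantile normalization had 544 lower (51.0% higher) and median centring 811 higher (48.1%). Without 1 array there were 683 to 1085 higher and 194 to 601 lower; lower were 228 without wild-type replicate 1, 308 without wild-type replicate 2, 228 without mutant replicate 1 and 194 without mutant replicate 3.

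Some genes that did not pass changed sign, and the cause was not tested. With quantile normalization, block or not, DAL2, DAL7, DAL5, MND2 and IRC24 had -0.041, -0.079, -0.12, -0.20 and -0.033, and with cyclic loess -0.0049, -0.053, -0.087, -0.17 and -0.0030. With median centring DAL7, DAL5 and HTA1 had -0.011, -0.012 and -0.025, and GZF3 had 0.053 with array weights. Without 1 array DAL7 ranged from -0.013 to 0.10, GZF3 from -0.059 to 0.046 and HTA1 from -0.0065 to 0.075. The replicate block alone changed the calls of DAL81, MGA2, OPT2 and GUD1 among the genes listed or named, and no other. Depth cannot be read from these values, and dim probe sets such as DAL80 and GLN3 depend most on the scaling.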

Other observations

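Within the list of nitrogen source use, the proline and GABA genes were looked at together after their values were seen. Proline is oxidised by the products of PUT1 and PUT2, and both rose beside the permease gene PUT4. PUT1 averaged 563 ± 61.5 in H2A R78A and 334 ± 57.3 in wild type (SD, n = 3 each), 1.69-fold higher (limma adjusted p = 0.00127), with a log2 difference of 0.71 after quantile normalization (adjusted p = 0.00243). PUT2 averaged 492 ± 66.4 in H2A R78A and 365 ± 14.9 in wild type, 1.34-fold higher (limma adjusted p = 0.00859). UGA2, for the dehydrogenase that follows UGA1 in GABA use, averaged 234 ± 7.13 in H2A R78A and 137 ± 13.8 in wild type, 1.71-fold higher (limma adjusted p = 3.74e-04).

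The general amino acid permease gene GAP1, a standard readout of nitrogen catabolite repression, averaged 78.8 ± 15.2 in H2A R78A and 47.8 ± 9.12 in wild type (1.65-fold, limma adjusted p = 0.0159). After quantile normalization it did not pass (log2 0.25, adjusted p = 0.287). Every GAP1 signal lay below 111 and so below the background level. In its signal class, with a mean log2 under 6, 46.3% of genes rose. The 90th percentile of the differences in that class was 1.32, above the 0.72 of GAP1. The genes of the list that fell were CAR1, for arginase, with a log2 difference of -0.25 (limma adjusted p = 0.017), and GLN1, for glutamine synthetase, with -0.24 (limma adjusted p = 0.00779). GLN1 did not pass after quantile normalization (adjusted p = 0.0536).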
